A study of Caenorhabditis elegans with 36 samples.

Results

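The regions described here are the binding peaks of 2 chromatin proteins, HDA-1 and DVE-1, on the arms of autosomes II, III, IV and V of *C. elegans*. A peak was counted as an arm peak when its midpoint lay in the first or last 4 Mb of its chromosome in the WBcel235 assembly, which is the same as ce11, so membership rests on position and on no measured value. Of the 57748 peaks in the 8 deposited lists, 14472 were on these arms and 21840 were in the centres of the same chromosomes. Chromatin immunoprecipitation followed by sequencing (ChIP-seq) had been run on whole worms at day 1 of adulthood with GFP-trap agarose, in 2 strains, the HDA-1-GFP strain with the fusion *hda-1p::hda-1::gfp* and the DVE-1-GFP strain with *dve-1p::dve-1::gfp*. Every group, controls included, carries *glp-4(bn2)*, a temperature-sensitive allele that blocks germline growth when it is active, and a GFP fusion driven by the promoter of its own gene. HDA-1-GFP worms were fed control (empty vector L4440) or *dve-1* RNAi, and DVE-1-GFP worms control or *hda-1* RNAi, each without or with *atp-2* RNAi, which targets an ATP synthase subunit of mitochondria. The 36 samples were 18 ChIP and 18 input samples, with 3 of each in the 2 conditions with *dve-1* RNAi and 2 of each in the others. Each condition has 1 list, named below by protein and RNAi (for example, HDA-1 *atp-2*), and a list holds the start and end of each peak only. There was thus no height, no depth and no spread between samples, and a knockdown cannot be read from peak positions. All samples with *dve-1* or *hda-1* RNAi were numbered apart from the others in the deposit. The paper states that ChIP spanned a long period and several lots of GFP-trap agarose, and it calls the results robust. The lot of each sample is not given. A difference between lists with and without these RNAi treatments cannot be told apart from one between these sets of samples. All intervals below are 95% intervals that cover counting error only, and a test over peaks compares the arm and the centre parts of these lists, not cultures of worms. The 49 comparisons of arms with centres were adjusted together by the Benjamini-Hochberg method.

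Worm autosomes have no single centromere. Their arms recombine more than their centres, carry more repeats and more methylation of histone H3 on lysine 9, lie nearer to the nuclear envelope, and hold many young gene families such as those for chemoreceptors, F-box proteins and C-type lectins, while housekeeping genes are concentrated in the centres. HDA-1 is a class I histone deacetylase, an enzyme family that removes acetyl groups from histone tails. DVE-1 is a homeodomain protein related to mammalian SATB1 that takes part in the mitochondrial unfolded protein response (UPRmt), the transcriptional answer to mitochondrial stress. In the assembly used, the 32 Mb of arms had 185 protein-coding genes per Mb and 43.6% soft-masked bases (repeats and low-complexity sequence, in lower case in the RefSeq files), against 238 genes per Mb and 29.8% in the 35.5 Mb of centres. The arms therefore matched their description in both respects, with 0.775 times the gene density of the centres.

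The following 200 bp windows are examples of sequence inside the peaks described below (RefSeq, WBcel235, forward strand, positions counted from 1). Capitals mark the words TGATAA (the core bound by GATA factors), CTGCGTCTC, GAGAGAGA and TTAGGC in 2 or more tandem units (the telomere repeat), searched on both strands. CTGCGTCTC and the reverse complement of GAGAGAGA can overlap each other. The first set shows the centres of the 3 widest arm peaks that were in the HDA-1 *atp-2* list and had no counterpart in the HDA-1 control list, among those with TGATAA in the central 200 bp and no annotated UTR there. Distances run from the middle of a window. The first window is intergenic, the second is intergenic and 193 bp from the 5′ end of *nep-17* (a neprilysin-type peptidase gene), and the third is inside *nhr-95* and partly exonic.
III:12089125-12089324: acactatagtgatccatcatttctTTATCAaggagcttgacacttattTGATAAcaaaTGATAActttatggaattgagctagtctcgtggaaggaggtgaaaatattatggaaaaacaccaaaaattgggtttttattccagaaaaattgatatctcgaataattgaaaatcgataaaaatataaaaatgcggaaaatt
II:13507527-13507726: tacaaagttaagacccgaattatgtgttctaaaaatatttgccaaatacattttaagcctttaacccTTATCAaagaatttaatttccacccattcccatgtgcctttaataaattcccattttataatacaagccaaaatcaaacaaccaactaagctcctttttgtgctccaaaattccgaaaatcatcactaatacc
V:19078846-19079045: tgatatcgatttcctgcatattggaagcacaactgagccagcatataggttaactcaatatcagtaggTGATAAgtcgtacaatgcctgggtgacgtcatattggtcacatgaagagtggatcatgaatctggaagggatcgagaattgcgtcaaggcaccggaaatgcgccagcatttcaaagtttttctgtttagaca
The second set comes from the DVE-1 control peaks that had no counterpart under *hda-1* RNAi, which show the largest difference between arms and centres among the gained and lost classes below. Its first window lies in an intron of F53H2.3, and the second is partly in an exon of Y45G12B.3.
V:20397550-20397749: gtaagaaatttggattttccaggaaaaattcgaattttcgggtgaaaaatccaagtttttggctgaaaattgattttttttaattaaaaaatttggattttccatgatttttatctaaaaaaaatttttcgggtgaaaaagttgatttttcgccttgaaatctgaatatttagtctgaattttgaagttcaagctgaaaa
V:2688831-2689030: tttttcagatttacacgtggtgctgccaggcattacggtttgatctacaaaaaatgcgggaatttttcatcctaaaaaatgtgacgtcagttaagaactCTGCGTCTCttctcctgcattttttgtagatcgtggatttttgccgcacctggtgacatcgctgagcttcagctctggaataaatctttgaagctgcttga
The last set holds the middle of the segment shared by all 8 lists at the sites nearest to the left ends of III and IV. The first is intergenic and 174 bp from the 5′ end of *nhr-80*, a nuclear hormone receptor gene of fatty acid desaturation, and the second is intergenic and 2231 bp from the 5′ end of T05C7.4.
III:14944-15143: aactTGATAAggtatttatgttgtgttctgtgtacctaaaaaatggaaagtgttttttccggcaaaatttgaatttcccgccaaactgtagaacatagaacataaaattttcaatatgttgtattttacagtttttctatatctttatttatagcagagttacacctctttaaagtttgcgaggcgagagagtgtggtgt
IV:51309-51508: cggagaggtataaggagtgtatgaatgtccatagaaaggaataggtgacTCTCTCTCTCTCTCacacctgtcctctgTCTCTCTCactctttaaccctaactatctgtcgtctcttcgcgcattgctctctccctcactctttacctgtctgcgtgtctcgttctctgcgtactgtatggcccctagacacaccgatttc
The first window of the second set holds none of the words, and the last window holds GAGAGAGA 5 times, overlapping matches included. The windows are a selection. Of the windows not printed, IV:1635960-1636159 of the second set holds none of the words. V:8643-8842 of the last set, also not printed, holds GAGAGAGA 6 times, overlapping matches included.

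Both proteins had fewer peaks per Mb on the arms than in the centres, in all 8 lists and on all 4 chromosomes. The HDA-1 control list held 1680 arm peaks, or 52.5 per Mb, against 72.4 per Mb in the centres, a ratio of 0.725 (0.681 to 0.771, exact binomial test, adjusted p = 4.26e-24). With *atp-2* RNAi the HDA-1 list held 1732 arm peaks and the ratio was 0.761, with *dve-1* RNAi it held 1956 and the ratio was 0.690, and with both it held 2315 and the ratio was 0.70. The DVE-1 control list, the shortest, held 1164 arm peaks, or 36.4 against 43.6 per Mb, a ratio of 0.834 (0.773 to 0.901). DVE-1 arm peaks numbered 1779 with *atp-2* RNAi (ratio 0.803), 1739 with *hda-1* RNAi (0.709) and 2107 with both (0.726). All 8 ratios passed the test, and the largest adjusted p (exact binomial test) was that of the DVE-1 control list, 5.31e-06. The arms held between 23.0% (HDA-1 *dve-1*) and 27.4% (DVE-1 *atp-2*) of a list. Set against the number of genes, the difference was small: there were 28.4 HDA-1 control peaks per 100 genes on the arms and 30.4 in the centres, and 19.7 and 18.3 in the DVE-1 control list. The ratio of arms to centres per gene ran from 0.891 (HDA-1 *dve-1*) to 1.08 (DVE-1 control) and was not tested. Peaks farther than 500 bp from any protein-coding 5′ end alone gave ratios per Mb that no longer passed the test in 4 lists: 0.897 and 0.962 for HDA-1 control and HDA-1 *atp-2*, and 1.07 and 1.03 for DVE-1 control and DVE-1 *atp-2*, the last 2 on the other side of 1.

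**Figure D1:**
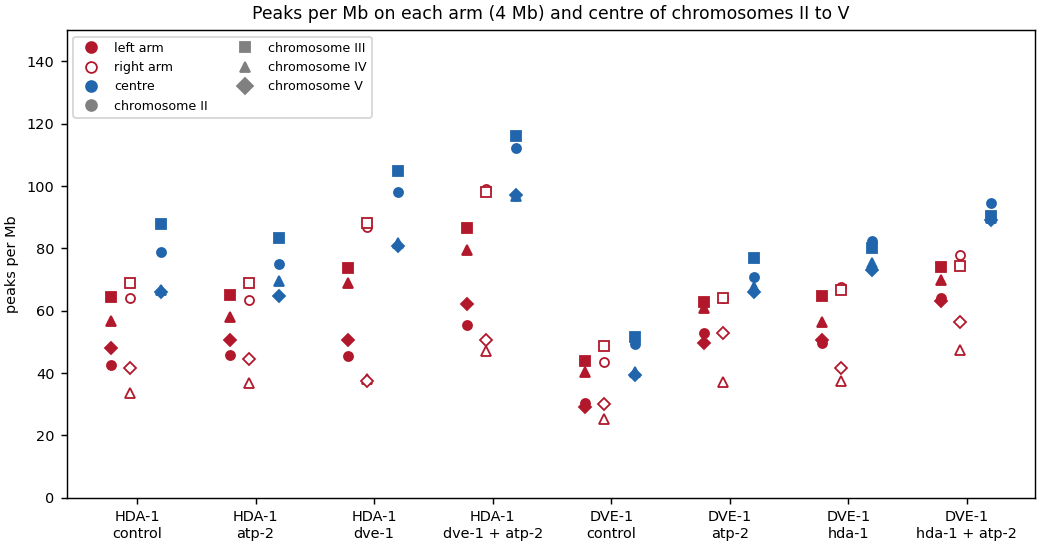
Peaks per Mb (y axis) in each of the 8 lists (x axis), with 1 point for each 4 Mb arm (red, filled for left and open for right) and each centre (blue) of chromosomes II (circle), III (square), IV (triangle) and V (diamond). The right arm of IV is the lowest arm of 7 lists, down to 25.25 per Mb in the DVE-1 control list (in HDA-1 *dve-1* the right arm of V is lower), and the centres lie above most arms of the same list.

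The 8 arms were not alike. The right arm of III was the richest in the HDA-1 control list with 68.75 peaks per Mb, followed by the left arm of III with 64.5 and the right arm of II with 64, while the right arm of IV had 33.5. The right arm of IV also had the fewest protein-coding genes, 133.25 per Mb, of the 8 arms. The left arm of II had the most genes, 253.75 per Mb, yet only 16.8 HDA-1 control peaks per 100 genes, against 41.0 on the left arm of III. DVE-1 control peaks stood at 48.75 per Mb on the right arm of III and 29 on the left arm of V. With *dve-1* RNAi the HDA-1 list grew on the right arm of II, from 256 to 347 peaks, and on the right arm of III, from 275 to 352, but shrank on the right arm of V, from 167 to 150. With *atp-2* RNAi the DVE-1 list grew on each of the 8 arms, with the steepest growth on the right arm of V, from 120 to 212 peaks, and the least steep on the right arm of III, from 195 to 257.

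**Figure D2:**
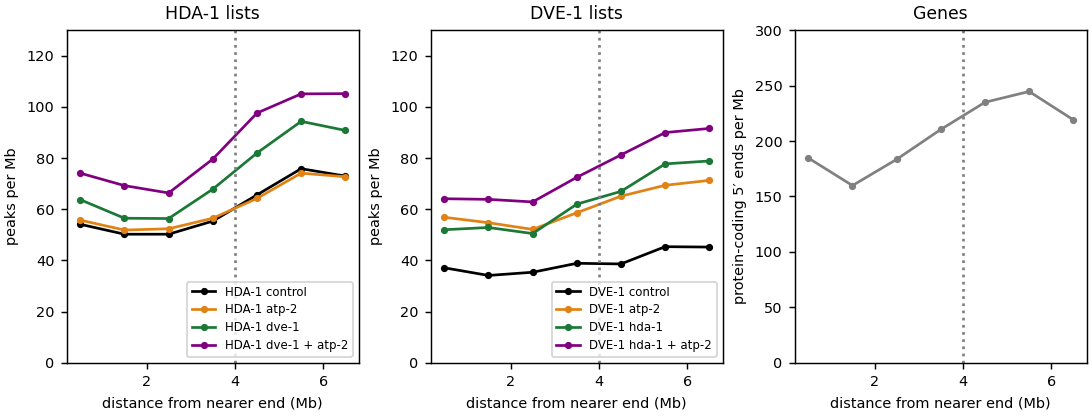
Peaks per Mb against the distance of the peak midpoint from the nearer chromosome end, in 1 Mb bins over chromosomes II to V (left, HDA-1 lists; middle, DVE-1 lists), and protein-coding 5′ ends per Mb in the same bins (right); the dotted line is the 4 Mb boundary. The HDA-1 control list ran from 50.25 per Mb between 1 and 3 Mb to 75.875 between 5 and 6 Mb, and genes from 159.875 to 244.75 per Mb.

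Within the arms, peak density ranged narrowly with distance from the end. The HDA-1 control list had 54.1, 50.25, 50.25 and 55.4 peaks per Mb in the 4 bins of 1 Mb from the end inwards, then 65.6 and 75.9 in the next bins. The DVE-1 control list had 37.1, 34.1, 35.4 and 38.9 peaks per Mb in the arm bins and 38.6 in the first bin beyond them, so for this list the density beside the 4 Mb boundary was close on its inner and outer side. The HDA-1 control peaks just inside the boundary had midpoints between 3.94 Mb (left arm of IV) and 3.997 Mb (right arm of III) from the end and widths of 357 to 3249 bp. Those just outside had midpoints between 4.0001 Mb (left arm of II) and 4.04 Mb (right arms of II and IV) and widths of 463 to 3508 bp. Peaks reached the ends of the chromosomes. The outermost site with a peak in all 8 lists was at II:24-2246 on the left arm of II, at 2L52.1, and at V:7456-9594 on the left arm of V, at *ife-3*, an eIF4E translation initiation factor gene. On the right arms of III, IV and V these sites were III:13758824-13769221 at *dbn-1* and *rml-1*, IV:17465069-17477827 at *elo-2* (a fatty acid elongase gene), *gba-3* and neighbours, and V:20902950-20905284 at *amx-3* and *acs-12*.

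Arm peaks were narrower than centre peaks and less often at a gene start. The median width of HDA-1 control peaks was 1020.5 bp on the arms (quartiles 560 and 2036 bp) and 1256 bp in the centres, and 25.4% of arm peaks were 2 kb or wider against 32% of centre peaks, a difference of -6.62 percentage points (-9.35 to -3.84, Fisher's exact test, adjusted p = 5.64e-06). The share of wide peaks was lower on the arms in all 8 lists, with differences from -3.46 (HDA-1 *dve-1*) to -8.64 points (DVE-1 *hda-1* + *atp-2*), and all 8 differences passed the test. For DVE-1 control the difference of -4.32 points (Fisher's exact test, adjusted p = 0.0229) became -2.49 (adjusted p = 0.270) without chromosome V and -1.94 (adjusted p = 0.378) with arms of 3 Mb. A protein-coding 5′ end lay within 500 bp of 61.8% of HDA-1 control arm peaks and 69.2% of centre peaks, a difference of -7.33 points (-10.3 to -4.40, Fisher's exact test, adjusted p = 1.68e-06). The other lists differed by -6.66 to -8.24 points and all passed. On chromosome V alone the difference was small, -1.58 points in HDA-1 control and -3.01 in HDA-1 *dve-1*, the largest. There it had the other sign in DVE-1 *hda-1* (0.69) and DVE-1 *hda-1* + *atp-2* (0.41). Arm peaks covered 9.27% of the arm sequence in the HDA-1 control list and 15.5% of the centre sequence, and the covered length per Mb gave ratios of arms to centres between 0.555 (DVE-1 *hda-1*) and 0.736 (DVE-1 control).

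Some of the widest arm peaks lay at the same loci in several lists. A peak of 18500 bp in HDA-1 control at V:20406832-20425331 overlapped F53H2.3 and *fce-2* (a CAAX-box protease gene) and came within 500 bp of where F48F5.8 starts. The DVE-1 control peak there was 18564 bp wide, and the DVE-1 *hda-1* list covered 10632 bp of that span. At III:3862693-3879782 a peak of 17090 bp covered *brc-1* (the worm BRCA1), *acs-19* (an acyl-CoA synthetase gene) and *rpl-3* (a large ribosomal subunit protein gene), and it was among the 2 widest arm peaks of 4 lists. The widest arm peak of any list was the DVE-1 *atp-2* peak of 22449 bp at II:1140630-1163078, which overlapped W09B6.4 and *pod-2*, the acetyl-CoA carboxylase gene, and HDA-1 *dve-1* peaks covered 7101 bp of that span. The widest arm peak of both lists with *hda-1* RNAi was at IV:17465789-17477827 and overlapped *elo-2* and *gba-3*, with 12039 bp in DVE-1 *hda-1* and 8392 bp covered in DVE-1 control. At II:3955754-3969205, where the peak overlaps *sea-2*, coverage was larger under *dve-1* RNAi, with 13452 bp in HDA-1 *dve-1*, 7840 bp covered in HDA-1 control, and 2775 bp in DVE-1 control.

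Protein-coding genes on the arms were less often marked by a peak than genes in the centres. Of 5909 arm genes, 1489 (25.2%) had an HDA-1 control peak within 500 bp of the 5′ end, against 32.6% of 8455 centre genes and 31.8% of genes on all 6 nuclear chromosomes, a difference of -7.37 points between arms and centres (-8.86 to -5.88, Fisher's exact test, adjusted p = 5.34e-21). In the other HDA-1 lists the arm shares were 26.2% with *atp-2* RNAi (31.3% of all genes), 21.0% with *dve-1* RNAi (27.8%) and 24.6% with both (31.8%). For DVE-1 the arm shares were 17.7% in the control list (19.9% of all genes), 27.6% with *atp-2* RNAi (31.2%), 23.3% with *hda-1* RNAi (29.9%) and 28.5% with both (34.9%). All 8 differences between arms and centres passed the test. The smallest, DVE-1 control at -1.71 points (Fisher's exact test, adjusted p = 0.0129), had that direction on 2 of 4 chromosomes only and was -0.18 (adjusted p = 0.825) without chromosome II and -1.70 (adjusted p = 0.0552) without V. Over all 8 lists 2315 arm genes (39.2%) had a peak in at least 1 list and 640 in each of them.

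The gene families of the arms differed widely in how often their genes had a peak, and in most families more genes had a DVE-1 peak in the list with *atp-2* RNAi. These lists were chosen with earlier results of these data known and their shares are given beside those of all arm genes, with no test. Chemoreceptor genes, most of which act in sensory neurons, were the largest family with 585 arm genes and were nearly without peaks: 12 (2.05%) had an HDA-1 control peak and 14 (2.39%) a DVE-1 control peak, and 26 (4.44%) a DVE-1 *atp-2* peak. F-box genes, whose products select targets for ubiquitin ligases, numbered 240 on the arms. HDA-1 peaks marked 38 (15.8%) in the control list and 53 (22.1%) with *atp-2* RNAi, and DVE-1 peaks 21 (8.75%) and 67 (27.9%). Of 59 genes of the MATH and BTB family, taken as those with *math* or *bath* symbols, 2 (3.39%) had a DVE-1 control peak and 17 (28.8%) a DVE-1 *atp-2* peak. HDA-1 peaks lay at 5 of them in the control list and 7 with *atp-2* RNAi, and 0 in the HDA-1 *dve-1* list. C-type lectin genes include many genes of the response to infection. DVE-1 peaks were at 13 of 113 in the control list and 32 (28.3%) in DVE-1 *atp-2*. They were at 34 (30.1%) in DVE-1 *hda-1*, without *atp-2* RNAi, and at 45 (39.8%) in DVE-1 *hda-1* + *atp-2*. HDA-1 peaks were at 14 and 16 C-type lectin genes without and with *atp-2* RNAi. The DVE-1 *hda-1* list also held more F-box (58, 24.2%) and MATH and BTB genes (8, 13.6%) than the control list. Of all arm genes, 23.3% had a peak in it. A larger share than in DVE-1 control was thus not particular to *atp-2* RNAi.

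Nuclear hormone receptor and cytochrome P450 genes on the arms had larger shares with a peak than arm genes as a whole in the control and *atp-2* lists of both proteins. Nuclear hormone receptor genes had HDA-1 control peaks at 43 of 107 (40.2%). DVE-1 peaks were at 27 (25.2%) without and 53 (49.5%) with *atp-2* RNAi, and at 42 (39.3%) with *hda-1* RNAi alone. Cytochrome P450 genes serve oxidation of lipids and foreign compounds. DVE-1 peaks were at 8 of 32 in the control list, 19 (59.4%) with *atp-2* RNAi and 14 (43.8%) with *hda-1* RNAi alone. HDA-1 peaks were at 13 of them in both the control and the *atp-2* list. UDP-glucuronosyltransferase genes, for conjugation of foreign compounds, were few on the arms, and DVE-1 peaks marked 1 of 8 in the control list and 5 with *atp-2* RNAi. Among 10 genes for aspartyl and cysteine peptidases, many of them lysosomal, 1 had a peak in each control list, and 4 in HDA-1 *atp-2* and 5 in DVE-1 *atp-2*. Collagen genes of the cuticle differed from these, with DVE-1 peaks at 8 of 33 in the control list and 6 with *atp-2* RNAi, and HDA-1 peaks at 6 in the control list and 12 (36.4%) with *dve-1* RNAi. Cytosolic ribosomal protein genes were marked the most, 13 of 15 in HDA-1 control, 11 in DVE-1 control and 10 in DVE-1 *hda-1*. As a share of all arm genes, DVE-1 peaks went from 17.7% to 27.6% with *atp-2* RNAi. The shares of chemoreceptor, F-box, MATH and BTB, C-type lectin, UDP-glucuronosyltransferase and peptidase genes in the DVE-1 control list were below that of arm genes as a whole. Centre genes of these families were similar in part. DVE-1 shares without and with *atp-2* RNAi were 8.16% and 30.6% of 49 F-box genes and 24.1% and 43.1% of 116 nuclear hormone receptor genes. For 34 cytochrome P450 genes they were 8.82% and 50%, for 88 C-type lectin genes 14.8% and 20.5%, and for all centre genes 19.4% and 31.7%. MATH and BTB genes differed, with 5 and 6 of 9. Of 657 chemoreceptor genes, 17 (2.59%) had an HDA-1 control peak.

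**Figure D3:**
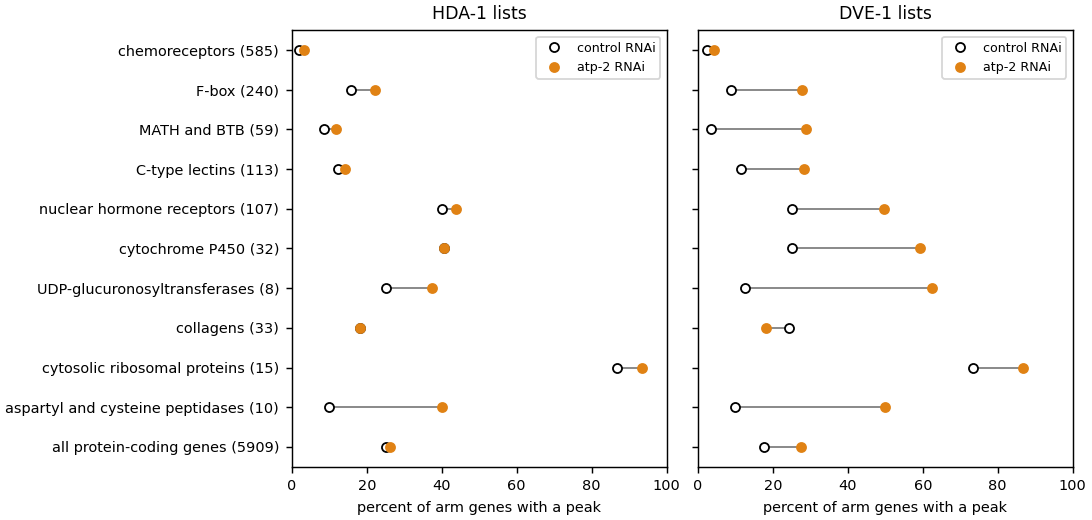
Percent of arm genes of each family with a peak within 500 bp of the 5′ end (x axis) in the HDA-1 (left) and DVE-1 (right) lists, for control RNAi (open circles) and *atp-2* RNAi (orange circles); the number of arm genes is in brackets. The DVE-1 share of MATH and BTB genes was 3.39% and 28.8%, and that of all arm genes 17.7% and 27.6%.

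Most classes of RNA genes, like protein-coding genes, lay under an HDA-1 control peak less often on the arms than in the centres, and pseudogenes more often, with no test made. Of 130 tRNA genes, 104 (80%) lay under an HDA-1 control peak and 88 (67.7%) under a DVE-1 control peak, near the 84.3% and 69.3% of the 140 tRNA genes in the centres. snoRNA genes were at 41.1% of 90 on the arms and 59.7% of 149 in the centres for HDA-1 control, and miRNA genes at 25.3% of 87 and 41.8% of 67. Pseudogenes, more numerous on the arms, lay under an HDA-1 control peak in 75 of 1034 cases (7.25%) on the arms and 42 of 728 (5.77%) in the centres. The piRNA genes, small genes that act in germline silencing and of which 11583 of the 11696 on the arms were on IV, were almost free of peaks, with 200 (1.71%) under an HDA-1 control peak and 366 (3.13%) under a DVE-1 *atp-2* peak, whereas 8.13% of 3407 centre piRNA genes lay under an HDA-1 control peak.

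With *atp-2* RNAi, HDA-1 peaks that were absent from the control list were more frequent on the arms. They made up 225 of 1732 HDA-1 *atp-2* arm peaks (13%, 11.5 to 14.7) and 206 of 2524 centre peaks (8.16%), against 8.76% of the whole list, a difference of 4.83 points (2.95 to 6.77, Fisher's exact test, adjusted p = 8.29e-07). The arms were higher on all 4 chromosomes, with 12.1% against 4.75% on II, 11.4% against 4.77% on III, 12.9% against 11.5% on IV and 16.3% against 9.69% on V. A 5′ end lay within 500 bp of 51.1% of the new arm peaks and 64.8% of the other HDA-1 *atp-2* arm peaks. The difference was 4.10 points among peaks at a 5′ end and 4.85 among the others, and 5.18 points among peaks with under 50% soft-masked bases, all past the test. When a counterpart had to share at least 50% of both intervals, it was 1.21 points (Fisher's exact test, adjusted p = 0.473). The reverse class, HDA-1 control peaks absent with *atp-2* RNAi, was 12.1% on the arms and 11.8% in the centres (12.9% of the whole list), and the difference of 0.35 points did not pass the test (-1.62 to 2.38, Fisher's exact test, adjusted p = 0.750).

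Of 140 arm genes at the new HDA-1 peaks, 13 were F-box genes such as *fbxa-156* and *fbxa-219*, 6 were nuclear hormone receptor genes including *nhr-115*, 6 were chemoreceptor genes, and 3 were the peptidase genes *asp-8*, *cpr-5* and *cpr-8*. Among 136 centre genes the same families gave 1, 3, 2 and 1. On the arms these families have 240, 107, 585 and 10 of 5909 protein-coding genes, and in the centres 49, 116, 657 and 11 of 8455. Chemoreceptor genes were thus a smaller share of the 140 than of all arm genes. Other families did not all have more genes on the arms. Cytochrome P450 genes numbered 2 on the arms and 5 in the centres, and UDP-glucuronosyltransferase genes 1 and 4. C-type lectin genes numbered 2 and 2, collagen genes 1 and 1, and MATH and BTB genes 2 and 0. None of these counts was tested. The widest new arm peak, 3342 bp at II:3294956-3298297, lay at *btb-16*, *btb-17* and *btb-18*, and was covered over 2295 bp in DVE-1 *atp-2*, over 612 bp in DVE-1 *hda-1*, and over 0 bp in the DVE-1 control and both HDA-1 *dve-1* lists. The second widest, III:12087649-12090800, whose middle is printed first above, lay 4908 bp from the nearest 5′ end, that of the Hox gene *nob-1*, counted from its middle. It was covered by a DVE-1 control peak over 3076 bp and by DVE-1 *atp-2* over its whole 3152 bp. The HDA-1 control peaks absent with *atp-2* RNAi were led by a peak of 4397 bp at II:11841868-11846264 over T27D12.1, present over its whole width in HDA-1 *dve-1* + *atp-2* and absent from DVE-1 control and DVE-1 *atp-2*. A peak of 3844 bp at II:1088236-1092079 over *snf-3*, a betaine transporter gene, followed.

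With *atp-2* RNAi the DVE-1 list had a larger share of new peaks than the HDA-1 list, on the arms and in the centres, and the zones did not differ past the test. Absent from the DVE-1 control list were 38.9% of DVE-1 *atp-2* arm peaks and 40.9% of centre peaks, against 38.5% of the whole list (difference -2.02 points, -5.0 to 0.97, Fisher's exact test, adjusted p = 0.210). Without chromosome II the difference was -3.95 points and passed the test (Fisher's exact test, adjusted p = 0.0324). The 3 widest were a peak of 4936 bp at V:19455148-19460083 over Y43F8B.13 and neighbours, one of 4818 bp at II:2411210-2416027 over the F-box genes *fbxa-4* and *fbxa-182*, and one of 4542 bp at V:1131054-1135595 over the cathepsin B-like genes *cpr-5* and *cpr-8*. The first was in DVE-1 lists only, while HDA-1 *atp-2* peaks covered 4717 bp of the second and 2776 bp of the third. The 534 arm genes at new DVE-1 peaks included 43 F-box, 26 nuclear hormone receptor, 20 C-type lectin, 15 MATH and BTB and 11 cytochrome P450 genes, out of 240, 107, 113, 59 and 32 such genes among the 5909 arm genes. Among 954 centre genes at new DVE-1 peaks the same families gave 11, 18, 6, 0 and 14, out of 49, 116, 88, 9 and 34 among the 8455 centre genes. These counts were not tested. Far fewer DVE-1 control peaks had no counterpart with *atp-2* RNAi, 70 of 1164 on the arms (6.01%) and 3.62% in the centres (4.49% of the whole list), a difference of 2.39 points (0.78 to 4.12, Fisher's exact test, adjusted p = 0.00548) that was 1.42 with arms of 5 Mb (adjusted p = 0.0920) and 1.14 with 50% of both intervals shared (adjusted p = 0.552). The widest, 3755 bp at II:11925656-11929410, lay in *lin-29*, a developmental timing gene.

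Among the 12 comparisons of gained and lost peaks, the largest difference between arms and centres was in DVE-1 control peaks with no counterpart under *hda-1* RNAi. Without a counterpart under *hda-1* RNAi were 126 of 1164 DVE-1 control arm peaks (10.8%, 9.17 to 12.7) and 52 of 1547 centre peaks (3.36%, 2.57 to 4.38), against 5.68% of the whole list. The difference was 7.46 points (5.52 to 9.53, Fisher's exact test, adjusted p = 4.95e-14), and the arms were higher on each chromosome, with 9.15% against 2.79% on II, 9.16% against 4.01% on III, 13.4% against 3.13% on IV and 12.7% against 3.55% on V. It held among peaks of 1 kb or more (5.61 points), narrower peaks (9.23), peaks at a 5′ end (6.75), other peaks (7.52) and peaks with under 50% soft-masked bases (7.77% against 2.89%, 4.88 points, Fisher's exact test, adjusted p = 3.96e-07). Among peaks with at least 50% soft-masked bases the shares were 20.1% of 289 and 15.3% of 59, a difference of 4.81 points that did not pass the test (-7.21 to 13.4, Fisher's exact test, adjusted p = 0.502). With 50% of both intervals shared, the overall difference was 2.51 points (Fisher's exact test, adjusted p = 0.207).

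The lost peaks held more soft-masked sequence than the kept ones, on the arms and in the centres. Of the 126, 58 (46.0%) were at least 50% soft-masked, against 231 of the 1038 kept arm peaks (22.3%). In the centres the shares were 9 of 52 lost peaks (17.3%) and 50 of 1495 kept peaks (3.34%). They were narrower, with a median of 796 bp and of 1298.5 bp in kept peaks, and 62 (49.2%) lay within 500 bp of a 5′ end, against 63.6%. The centres showed the same order, with median widths of 771.5 and 1476 bp for lost and kept peaks and 38.5% and 71.4% of them near a 5′ end. In other lists, 83 of the 126 lay on an HDA-1 control peak and 88 on a DVE-1 *atp-2* peak, and 50 on a DVE-1 *hda-1* + *atp-2* peak. These were smaller shares than among the 1038 kept arm peaks, of which 951, 1006 and 1013 did. In the centres the counts were 44, 36 and 23 of 52 lost peaks, and 1420, 1455 and 1484 of 1495 kept peaks. The widest lost peak was 5547 bp at III:122418-127964, near *pals-23* and *pals-24*, members of a family known for genes of the response to intracellular pathogens, and was covered over 4100 bp in DVE-1 *atp-2* and over 0 bp in HDA-1 control. Others were 4556 bp at V:20395372-20399927 in F53H2.3, whose middle is printed above, 3871 bp at II:14864445-14868315 over *gpx-2* (a glutathione peroxidase gene), and 3294 bp at V:2687284-2690577, which holds the printed window with CTGCGTCTC. These 4 regions and the printed windows were chosen after values were seen.

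**Figure D4:**
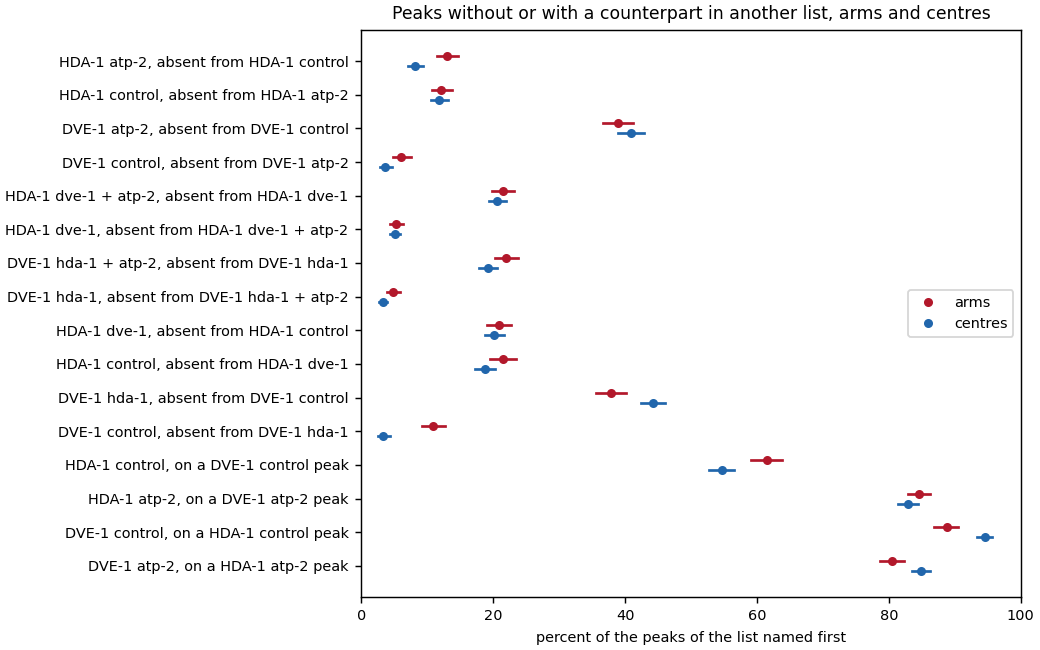
Percent of the peaks of the list named first (x axis) that are absent from, or overlap a peak of, the second list, on the arms (red) and in the centres (blue) of chromosomes II to V, with 95% Wilson intervals. DVE-1 control peaks absent from DVE-1 *hda-1* stand at 10.8% and 3.36%, and HDA-1 *atp-2* peaks absent from HDA-1 control at 13% and 8.16%.

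Peaks that appeared with *hda-1* RNAi went the other way. Of DVE-1 *hda-1* peaks, 37.8% on the arms and 44.2% in the centres were absent from DVE-1 control (41.2% of the whole list), a difference of -6.37 points (-9.30 to -3.42, Fisher's exact test, adjusted p = 3.90e-05) seen on 4 of 4 chromosomes. In the presence of *hda-1* RNAi, *atp-2* RNAi added 21.9% of DVE-1 *hda-1* + *atp-2* arm peaks and 19.2% of centre peaks (19.2% of the whole list, difference 2.71 points, Fisher's exact test, adjusted p = 0.0218), and 4.83% of DVE-1 *hda-1* arm peaks and 3.23% of centre peaks were absent from the list with both (3.72% of the whole list, 1.60 points, adjusted p = 0.0108). Both small differences missed the threshold without one chromosome, the first without II (2.15 points, Fisher's exact test, adjusted p = 0.119) and the second without III (1.0 point, adjusted p = 0.176) or V (1.46 points, adjusted p = 0.0552).

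For HDA-1 with *dve-1* RNAi, 1 of 4 comparisons of arms with centres passed the test. HDA-1 *dve-1* peaks absent from HDA-1 control were 20.8% of arm peaks and 20.2% of centre peaks (21.3% of the whole list, difference 0.62 points, -1.64 to 2.93). HDA-1 control peaks absent with *dve-1* RNAi were 21.4% and 18.7% (18.1% of the whole list), a difference of 2.71 points (Fisher's exact test, adjusted p = 0.0390) that was 2.36 without chromosome III (adjusted p = 0.141) and 1.82 without V (adjusted p = 0.219). With *dve-1* RNAi in both lists, *atp-2* RNAi added 21.5% of arm and 20.6% of centre peaks (20.2% of the whole list, 0.87 points, -1.23 to 3.02), while 5.21% and 5.09% were absent with *atp-2* RNAi (5.39% of the whole list, 0.12 points, -1.10 to 1.41). The arm peaks that were in HDA-1 *dve-1* and not in HDA-1 control had a median width of 398 bp and lay farther from genes, with 23.3% within 500 bp of a 5′ end against 53.2% of the other HDA-1 *dve-1* arm peaks.

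HDA-1 and DVE-1 lists overlapped differently on the arms and in the centres, and the direction depended on which list was asked. In control worms, 1033 of 1680 HDA-1 arm peaks (61.5%, 59.1 to 63.8) lay on a DVE-1 peak, against 54.7% of centre peaks and 56.7% of the whole list, a difference of 6.84 points (3.80 to 9.84, Fisher's exact test, adjusted p = 1.59e-05), and the arms were higher on each of the 4 chromosomes. The difference was 26.3 points among peaks with at least 50% soft-masked bases (65.4% of 306 against 39.1% of 64) and 5.58 among the others. Asked from DVE-1, 1034 of 1164 control arm peaks (88.8%) lay on an HDA-1 peak, against 94.6% of centre peaks and 92.9% of the whole list, a difference of -5.80 points (-7.99 to -3.71, Fisher's exact test, adjusted p = 1.35e-07). It was 1.41 points in the other direction when 50% of both intervals had to be shared (Fisher's exact test, adjusted p = 0.536). With *atp-2* RNAi, 84.6% of HDA-1 arm peaks and 83.0% of centre peaks lay on a DVE-1 peak (83.0% of the whole list, 1.68 points, -0.59 to 3.90), and 80.5% of DVE-1 arm peaks and 84.9% of centre peaks lay on an HDA-1 peak (84.2% of the whole list, -4.44 points, Fisher's exact test, adjusted p = 0.000220).

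Merging all lists gave 2819 arm sites, of which 735 (26.1%) were in all 8 lists, against 1131 of 4070 centre sites (27.8%), a difference of -1.72 points (-3.83 to 0.42, Fisher's exact test, adjusted p = 0.132). With arms of 3 or 5 Mb it was -2.59 and -2.84 and passed the test (Fisher's exact test, adjusted p = 0.0351 and 0.0108). Sites of all 8 lists were the widest, with a median of 2727 bp on the arms and 3377 bp in the centres, and sites of 1 list the narrowest at 450 and 441 bp. Sites with HDA-1 peaks only were 22.8% of arm sites and those with DVE-1 peaks only 18.3%, near the 23.5% and 16.8% of centre sites. Of the arm sites, 39 (1.38%, 1.01 to 1.89) were in both DVE-1 lists without *hda-1* RNAi and in neither with it, against 14 centre sites (0.344%, 0.205 to 0.577). The opposite pattern, neither list without and both lists with *hda-1* RNAi, held for 188 arm sites (6.67%) and 386 centre sites (9.48%). Only 1 arm site was in all 4 lists with *atp-2* RNAi and in none without it.

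Arm peaks were less repetitive than the arms and more repetitive than centre peaks. Soft-masked bases were 37.8% of the arm sequence covered in HDA-1 control and 40.4% in DVE-1 control, against 43.6% of all arm sequence. In the centres they were 27.6% and 28.1%, against 29.8%. Peaks vary in width while tiles are fixed at 1 kb, so the shares of peaks and tiles that follow are not like for like. Peaks with at least 50% soft-masked bases were 18.2% of HDA-1 control and 24.8% of DVE-1 control arm peaks, and 2.49% and 3.81% of centre peaks, whereas 37.6% of all 1 kb tiles on the arms and 8.16% in the centres reached that share. In the lists with the partner knocked down the share on the arms was lower, 10.2% in HDA-1 *dve-1* and 17.4% in DVE-1 *hda-1*. The authors kept uniquely mapped reads only, and the part of this filter in these shares was not tested. TGATAA was in the central 200 bp of 20.2% of HDA-1 control arm peaks and 22.7% of centre peaks, and of 21.4% and 23.3% in DVE-1 control. It was in 28.4% of arm and 29.2% of centre peaks of DVE-1 *atp-2*, and in 29.2% and 29.0% of DVE-1 *hda-1*, without *atp-2* RNAi. In DVE-1 *hda-1* + *atp-2* it was in 29.7% and 30.2%, and in HDA-1 *dve-1* in 15.7% and 18.3%. Of all 200 bp tiles, 16.1% on the arms and 19.4% in the centres held it. Of the 225 arm peaks new in HDA-1 *atp-2*, 41.8% (35.5 to 48.3) had it, and of the 206 new centre peaks 35.0% (28.8 to 41.7), so it was not particular to the arms. The 3 windows printed first were picked for holding it. Of DVE-1 control arm peaks it was in 9.52% (5.53 to 15.9) of those lost and 22.8% (20.4 to 25.5) of those kept with *hda-1* RNAi, and of centre peaks in 13.5% (6.68 to 25.3) and 23.7% (21.6 to 25.9). CTGCGTCTC was in 7.62% of HDA-1 control arm peaks, 3.31% of centre peaks, 1.14% of arm tiles and 0.593% of centre tiles. Among DVE-1 control arm peaks it was in 3.17% (1.24 to 7.88) of those lost and 6.36% (5.03 to 8.01) of those kept with *hda-1* RNAi. GAGAGAGA was in 6.01% of HDA-1 control and 9.51% of HDA-1 *dve-1* arm peaks and in 1.22% of arm tiles. The order was the same in the centres, with 4.13%, 6.11% and 1.35%. The telomere word was in 0.693% of arm tiles and 0.119% of HDA-1 control arm peaks (2 of 1680). A word marks letters in a window, not a bound site.

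**Figure D5:**
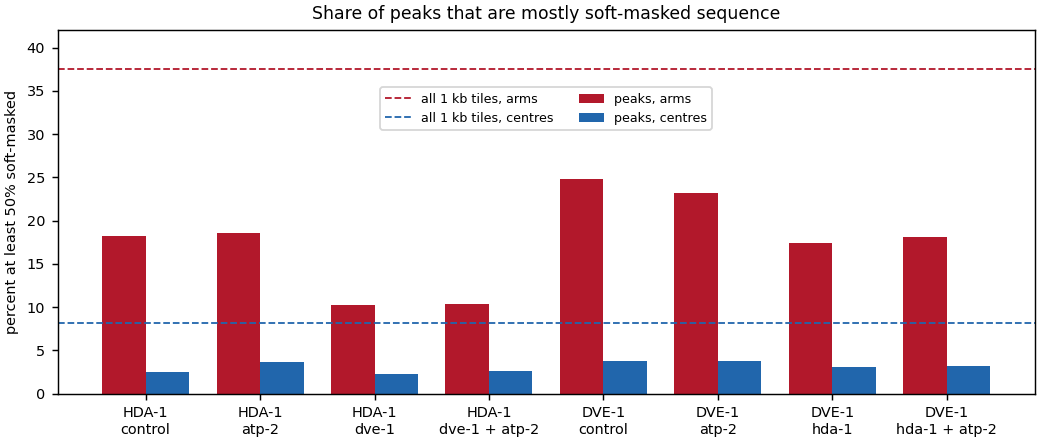
Percent of peaks with at least 50% soft-masked bases (y axis) in each list (x axis), on the arms (red bars) and in the centres (blue bars); dashed lines give the same share of all 1 kb tiles, 37.6% on the arms and 8.16% in the centres. Arm peaks lay between 10.2% and 24.8% and centre peaks between 2.26% and 3.83%.

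Of the genes of the study that were looked up here, which are not all the genes it names, 11 were on these arms. Of these, *hsp-60*, *hsp-16.2*, *cyp-33C8*, *ipla-3*, *tars-1* and *ubq-2* had a peak in all 8 lists, as did 640 of all 5909 arm genes. The width of the peak differed most at *hsp-60* (III:1619742-1625803), the gene of the mitochondrial chaperonin. There the HDA-1 peak was 7487 bp wide in the control list, 7606 bp with *atp-2* RNAi, 732 bp with *dve-1* RNAi and 1952 bp with both. The DVE-1 peak was 7372 bp in the control list, 8544 bp with *atp-2* RNAi, 1058 bp with *hda-1* RNAi and 678 bp with both. At *hsp-60* each of the 4 lists with the partner knocked down thus held a shorter peak than each of the other 4. Narrower peaks were also a property of these lists as a whole. Median widths of HDA-1 arm peaks were 685.5 and 648 bp with *dve-1* RNAi, against 1020.5 and 934 bp. For DVE-1 they were 967 and 860 bp with *hda-1* RNAi, against 1226.5 and 1014 bp. The small heat shock gene *hsp-16.2* (V:1804334-1804957) had peaks of 2217 to 2920 bp in the 8 lists. At *cyp-33C8*, a cytochrome P450 gene, peaks were wider with *atp-2* RNAi in each pair of lists, from 1826 to 4661 bp for HDA-1 and from 955 to 5464 bp for DVE-1 under control RNAi. The threonyl-tRNA synthetase gene *tars-1* had peaks of 1577 to 2126 bp and the ubiquitin gene *ubq-2* of 419 to 1874 bp. Other genes depended on the list. The infection response gene *irg-1* (V:3523587-3524679) had narrow peaks in HDA-1 *atp-2* (474 bp), DVE-1 *atp-2* (530 bp), DVE-1 *hda-1* (424 bp) and DVE-1 *hda-1* + *atp-2* (497 bp). The nuclear hormone receptor gene *nhr-115* had them in HDA-1 *atp-2* (429 bp), DVE-1 *atp-2* (613 bp) and DVE-1 *hda-1* + *atp-2* (464 bp). M04C3.2 and *cua-1*, a copper-transporting ATPase gene, had a peak in DVE-1 *atp-2* only, 9215 and 1622 bp wide, and *eat-2*, an acetylcholine receptor subunit gene of pharyngeal muscle, had none in the 8 lists.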

How the data were processed

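Whole worms of the 8 conditions were processed by ChIP-seq with input controls. According to the methods and the submitters' processing notes, the authors trimmed reads with Trim Galore, aligned them with BWA 0.7.13-r1126 to ce11, kept uniquely mapped, properly paired reads, removed duplicates with Picard 2.17.6 and called broad peaks with MACS2 2.1.1. The step that turned the 2 or 3 ChIP samples per condition into 1 list is not given in the sources used here. Each deposited file holds only chromosome, start and end of each peak, so depth is unknown and no peak threshold could be varied. Reads with several possible positions were dropped before calling, and what this did to peaks in the repeat-rich arms was not tested.

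From the deposited positions, each peak was assigned by its midpoint to an arm (first or last 4 Mb) or a centre of II to V. Peaks sharing at least 1 bp counted as counterparts. A gene was counted as having a peak when a peak lay within 500 bp of its 5′ end (Ensembl release 115, protein-coding genes). Densities were compared by an exact binomial test and shares by Fisher's exact test, two-sided, with Wilson intervals for shares, Newcombe intervals for differences and exact intervals for ratios, and p-values were adjusted over 49 tests by the Benjamini-Hochberg method (threshold 0.05). Soft-masked bases and words were read from the RefSeq WBcel235 sequence. The calculations used Python 3.11.15, numpy 2.4.6, scipy 1.17.1 and matplotlib 3.10.9, and were tested on simulated data and against bedtools 2.31.1. Named regions are the 2 widest arm peaks per list, the 3 widest gained and lost with *atp-2* RNAi per protein, the outermost sites of all 8 lists and the peaks beside the 4 Mb boundary, and named genes are those of the study on the arms and families by symbol prefix. The members, lists, words and rules were chosen with earlier results of these data known. Alternatives were arms of 3 and 5 Mb, leaving out each chromosome, stricter overlap, other distances and widths, and peaks away from 5′ ends.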

Additional observations from a re-analysis of the deposited data

How the results depend on the processing

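Of 407 alternative values, 356 kept their direction and their side of the threshold, 25 lost the call, 4 gained it, 14 changed sign and 8 moved. The 18 values for subsets of peaks were chosen after seeing the data, and 16 kept their call. No paired analysis was possible because each condition has 1 list and its columns carry no replicate number and no replicate to leave out. The cause was not tested in any case below. Covered base pairs in place of peaks gave density ratios of 0.598, 0.624, 0.587 and 0.590 for HDA-1 (control, *atp-2*, *dve-1*, both) and 0.736, 0.683, 0.555 and 0.560 for DVE-1 (control, *atp-2*, *hda-1*, both). Only peaks far from 5′ ends gave 0.897 (HDA-1 control) and 0.962 (HDA-1 *atp-2*), with no call, and 1.07 (DVE-1 control) and 1.03 (DVE-1 *atp-2*), on the other side of 1. All other values are percentage points, arms minus centres. For DVE-1 control, wide peaks lost the call with arms of 3 Mb (-1.94) or 5 Mb (-3.19), without chromosome V (-2.49) and at 5000 bp (-1.70), and genes with a peak with arms of 3 Mb (-1.07), without II (-0.18) or V (-1.70) and at 0 bp (-1.13).

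With at least 50% of both intervals covered, the call was lost for peaks new in HDA-1 *atp-2* (1.21), DVE-1 control peaks absent with *atp-2* (1.14) or *hda-1* RNAi (2.51), HDA-1 control peaks absent with *dve-1* RNAi (0.93) and peaks new in DVE-1 *hda-1* + *atp-2* (1.40). The sign changed for HDA-1 control absent with *atp-2* (-2.26), HDA-1 *dve-1* + *atp-2* absent from *dve-1* (-0.35) and the reverse (-1.49), DVE-1 *hda-1* absent from the list with both (-0.32), HDA-1 *dve-1* absent from control (-1.39), HDA-1 *atp-2* on DVE-1 (-0.77) and DVE-1 control on HDA-1 (1.41). With 50% of the peak covered, the call was lost for peaks new in DVE-1 *hda-1* + *atp-2* (2.44) and HDA-1 control absent with *dve-1* (1.24), and the sign changed for HDA-1 control absent with *atp-2* (-0.62) and HDA-1 *dve-1* absent with *atp-2* (-0.76).

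Arms of 3 Mb changed the sign for HDA-1 control absent with *atp-2* (-0.18), and sites of all 8 lists gained a call with arms of 3 Mb (-2.59) and 5 Mb (-2.84). Arms of 5 Mb lost the call for DVE-1 control absent with *atp-2* (1.42), DVE-1 *hda-1* absent with both (0.83) and HDA-1 control absent with *dve-1* (2.41). Without chromosome II, peaks new in DVE-1 *atp-2* gained a call (-3.95) and those new in DVE-1 *hda-1* + *atp-2* lost it (2.15). Without III, HDA-1 *atp-2* on DVE-1 gained a call (3.61), DVE-1 *hda-1* absent with both (1.0) and HDA-1 control absent with *dve-1* (2.36) lost it, and HDA-1 *dve-1* absent with *atp-2* changed sign (-0.044). Without V, DVE-1 *hda-1* absent with both (1.46) and HDA-1 control absent with *dve-1* (1.82) lost the call, and HDA-1 *dve-1* absent with *atp-2* changed sign (-0.22). Only peaks at least 50% soft-masked left no call for DVE-1 control absent with *hda-1* (4.81) and peaks new in HDA-1 *atp-2* (2.92).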
